A study of Abies pinsapo with 12 samples.

Results

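Needles of thinned, unshaded Spanish fir (Abies pinsapo) were compared between August 2016 and May 2017. Earlier results of these data were known when the samples were chosen by their labels. They are 2 libraries from August and 2 from May, 4 of the 12 libraries of the series. All came from adult trees of natural stands in southern Spain. The thinning trees stood where tree density had been lowered in 2004, which left each tree less competition for both light and water. Trees under thinning plus shading stood in thinned plots under a mesh, and control trees in adjacent dense stands that had not been thinned; each of these treatments also has 2 August and 2 May libraries. Every treatment had 3 plots of 100 m2. No label says whether the 2 replicates of a month are different trees, or whether both months share trees, so p-values refer to the spread between these libraries, which may be technical. Each month was sampled in 1 year only, so season, year and sampling occasion cannot be told apart.

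Spanish fir is an evergreen, drought-sensitive conifer of Mediterranean mountains, where spring is the season of shoot growth and summer is dry. Its needles live for several years and carry out photosynthesis and water loss. The water supply of the sampled trees in either month is not given here. Thinning of dense stands is used to ease the competition for light and water.

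Values are scaled TPM, that is, TPM (each transcript's length-corrected share of a library) multiplied by 1 factor per library. The table lists 329801 assembled transcripts. Those at 10 or more in at least 2 of the 4 thinning libraries were tested, which left 14387 (4.36%) in 9425 assembly components; a component is a group of transcripts that share the DN and c numbers of their identifiers. Just inside this limit, 976 transcripts had a second highest value from 10 to under 11, and just outside it 1123 had one from 9 to under 10. The identifiers are not paired with gene names in the table, so transcripts carry no function here, and the labelled tissue could not be checked against marker genes. Depth is unknown, since TPM keeps none.

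The 2 May libraries of thinning trees were unlike, whereas the 2 August libraries were alike. On log2(scaled TPM + 1) over the 14387 transcripts, thinning August replicates 1 and 2 correlated at r = 0.889, against 0.592 for thinning May replicates 1 and 2. Replicates of thinning August had a root mean square SD of 0.458 log2 units and those of thinning May 0.961; it lay between 0.456 and 0.561 in the other 4 groups. The August replicates were 2-fold or more apart in 1071 transcripts (7.44%), the May replicates in 4517 (31.4%). The library nearest to thinning May replicate 1 was shading May replicate 1 (r = 0.907), and that nearest to thinning May replicate 2 was control May replicate 1 (r = 0.853). The May mean of the thinning trees thus joins libraries that are not alike. This was known beforehand, so the changes were also planned against each May replicate alone.

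Thinning May replicate 1 also listed far more transcripts than any other library. Thinning August replicates 1 and 2 had 101305 and 96899 transcripts above 0, thinning May replicates 1 and 2 had 208032 and 81710, and the other 8 libraries had between 84006 and 117855. The surplus lay at low values: from 1 to under 10 there were 37883 and 37306 transcripts in thinning August, against 118442 and 32727 in thinning May. At 10 or more the libraries were close, with 13611 and 13299 transcripts in thinning August and 14898 and 15076 in thinning May. The tested transcripts held 84.7% and 83.8% of the summed value in thinning August replicates 1 and 2, against 66.8% and 75.2% in thinning May replicates 1 and 2.

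**Figure D1:**
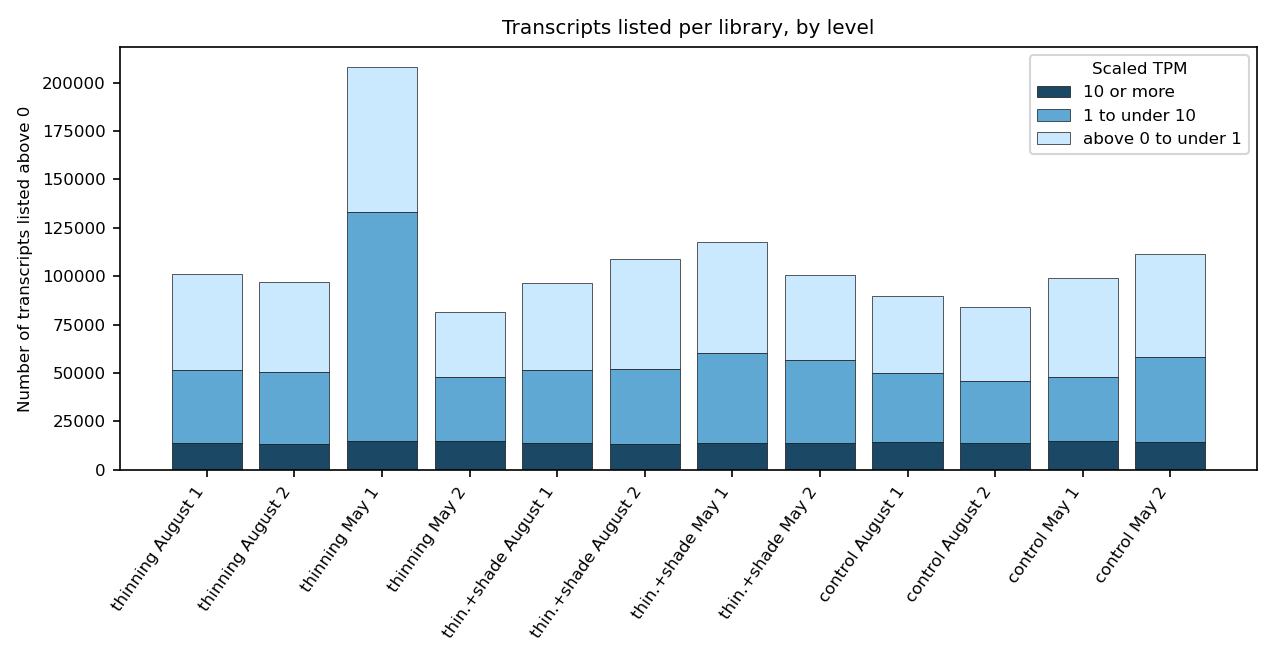
Number of transcripts listed above 0 in each of the 12 libraries (bars, 1 library each), split by scaled TPM. Thinning May replicate 1 lists 208032, of which 118442 lie from 1 to under 10, while the classes at 10 or more are of similar size in all libraries.

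Between August and May, limma called 646 of the 14387 transcripts in thinning trees (4.49%), 425 higher (2.95%) and 221 lower (1.54%) in August. Calls are at a Benjamini-Hochberg adjusted p under 0.05, with n = 2 libraries per month. For each transcript the fit assumes the same spread in every group. The thinning May replicates varied more, with a root mean square SD of 0.961 log2 units against 0.456 to 0.561 in the other groups. SE and adjusted p-values of August against May in thinning trees may therefore be too small, and the calls depend on that assumption. The higher transcripts had a median log2 fold change of 1.66 and the lower ones of -1.52, against 0.09 over all tested. Of the calls, 136 were higher (0.945%) and 54 lower (0.375%) by at least 4-fold. In all 646 the August libraries lay on 1 side of both May libraries, while over all tested transcripts both August libraries were above both May libraries in 4091 (28.4%) and below both in 2982 (20.7%). The split of the calls depended on the scaling: 65.8% were higher in August as deposited, 92.0% after each library was rescaled to the same total, and 48.0% after quantile normalization, and the median of all transcripts was then 0.37 and 0.00 in place of 0.09.

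The number of calls moved by over 1.5 times with each library left out of the fit. There were 0 calls without thinning August replicate 1 or replicate 2 (2472 and 2534 transcripts at an unadjusted p under 0.05), 4473 without thinning May replicate 1 and 251 without thinning May replicate 2. Leaving out a library of another treatment changes only the shared estimate of the spread: 133 and 137 calls were made without shading August replicate 1 and 2, 5 without shading May replicate 1, 5 without shading May replicate 2, 154 and 157 without control August replicate 1 and 2, and 337 and 354 without control May replicate 1 and 2. Limma with a weight per library gave 0 calls (2032 transcripts at an unadjusted p under 0.05), a fit of the 4 thinning libraries alone 0 (1717), and a fit of thinned trees only, shaded and unshaded, 2.

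**Figure D2:**
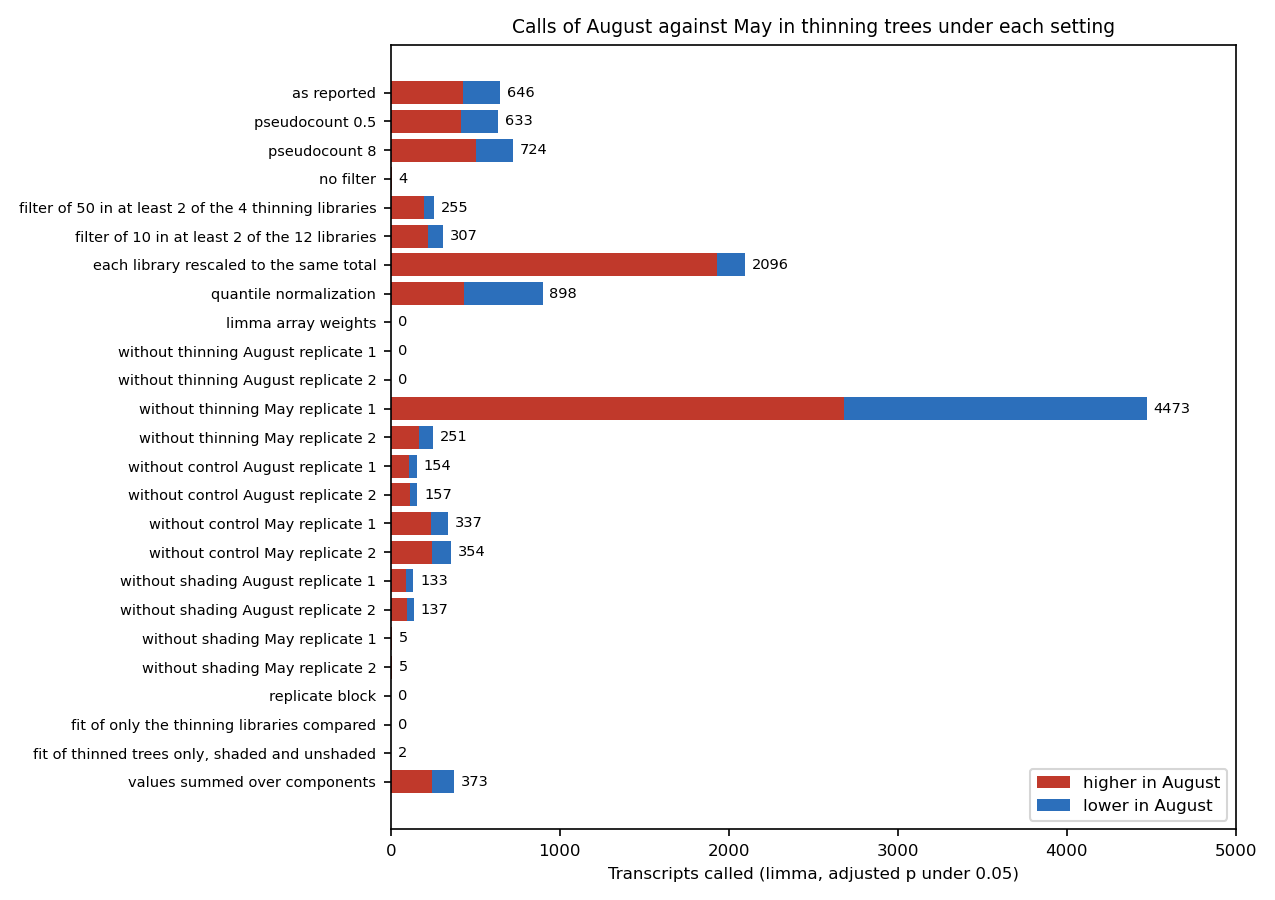
Transcripts called between August and May in thinning trees (limma, adjusted p under 0.05), as bars split into higher and lower in August, under each setting of the analysis. The count is 646 as reported and runs from 0 to 4473.

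By the naming rule (called, 50 or more in the higher month, no overlap), 2 transcripts had the largest rise to August. TRINITY_DN4825_c0_g2 had 243 and 33.9 scaled TPM in thinning August, against 0.118 and 0.133 in thinning May. It averaged 139 ± 148 in August and 0.126 ± 0.0106 in May (SD, n = 2), a log2 fold change of 6.36 (SE 0.98; limma adjusted p = 0.0244). Both August libraries stood far above both May libraries, and they were themselves far apart. August was also above May in shaded trees, with 157 and 130 in August against 1.46 and 0.313 in May, and in control trees, with 441 and 71.6 against 0.378 and 0.077. TRINITY_DN33358_c0_g1 had 936 and 507 scaled TPM in thinning August, against 31.8 and 5.20 in thinning May (log2 fold change 5.60, SE 0.73; limma adjusted p = 0.0238). It lay higher in August in all 3 treatments, with 972 and 1110 against 42.3 and 42.7 in shaded trees and 418 and 195 against 13.0 and 24.3 in control trees. Both transcripts belong to components with a further tested transcript. Against thinning May replicates 1 and 2 alone, the log2 fold change was 6.37 and 6.35 for TRINITY_DN4825_c0_g2, and 4.39 and 6.80 for TRINITY_DN33358_c0_g1. The call of TRINITY_DN4825_c0_g2 was lost in 11 of 22 alternative settings, among them the fit without thinning May replicate 2. That of TRINITY_DN33358_c0_g1 was lost in 9 of 23.

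The 2 largest falls under the same rule, hence among called transcripts, had levels under 10 in August and May replicates that were far apart. TRINITY_DN10123_c0_g1 had 1.17 and 3.34 scaled TPM in thinning August, against 53.7 and 168 in thinning May (log2 fold change -4.97, SE 1.02; limma adjusted p = 0.0404). TRINITY_DN13811_c0_g2 had 4.84 and 9.08 in thinning August, against 93.5 and 362 in thinning May (log2 fold change -4.59, SE 0.81; limma adjusted p = 0.0325). In both, thinning May replicate 2 was the highest of the 12 libraries. Against thinning May replicates 1 and 2 alone, the log2 fold change was -4.15 and -5.78 for TRINITY_DN10123_c0_g1, and -3.62 and -5.56 for TRINITY_DN13811_c0_g2. Their calls were lost in 16 and 14 of 23 alternative settings, among them the fit without thinning May replicate 2. The rule itself required that the August and May libraries of thinning trees not overlap. In shaded trees TRINITY_DN10123_c0_g1 had 20.6 and 4.37 in August against 32.7 and 32.1 in May, a smaller gap.

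Among the transcripts that met the rule, the smallest adjusted p-values in each direction were in transcripts whose replicates were close in both months. TRINITY_DN5193_c0_g1 had 106 and 119 scaled TPM in thinning August, against 7.85 and 10.4 in thinning May (log2 fold change 3.50, SE 0.26; limma adjusted p = 0.00484). TRINITY_DN464_c0_g1, of another component, had nearly the same values, 119 and 125 in August against 9.39 and 10.6 in May (log2 fold change 3.49, SE 0.28; limma adjusted p = 0.00533). In both transcripts the 2 thinning May libraries were the lowest of the 12, and the lowest of the other 10 libraries was control May replicate 1, at 52.5 and 53.3. Among the lower transcripts, TRINITY_DN28277_c0_g1 had 18.8 and 25.7 in thinning August, against 205 and 265 in thinning May (log2 fold change -3.35, SE 0.45; limma adjusted p = 0.0238). TRINITY_DN7104_c0_g1 had 27.6 and 20.5 in thinning August, against 62.3 and 81.3 in thinning May (log2 fold change -1.54, SE 0.21; limma adjusted p = 0.0243). In shaded and in control trees the months did not overlap either for TRINITY_DN5193_c0_g1, TRINITY_DN464_c0_g1, TRINITY_DN28277_c0_g1 or TRINITY_DN7104_c0_g1. In that order, their log2 fold changes against thinning May replicate 1 alone were 3.68, 3.57, -3.16 and -1.35. Against replicate 2 alone they were 3.31, 3.41, -3.53 and -1.73. The first 2 lost their call in 5 of 23 alternative settings and the last 2 in 9. The 8 transcripts named for August against May were each lost without thinning August replicate 1, without replicate 2, with library weights and in the fit of the thinning libraries alone, at limma adjusted p-values of up to 0.393; their log2 fold changes kept their sign under every setting.

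**Figure D3:**
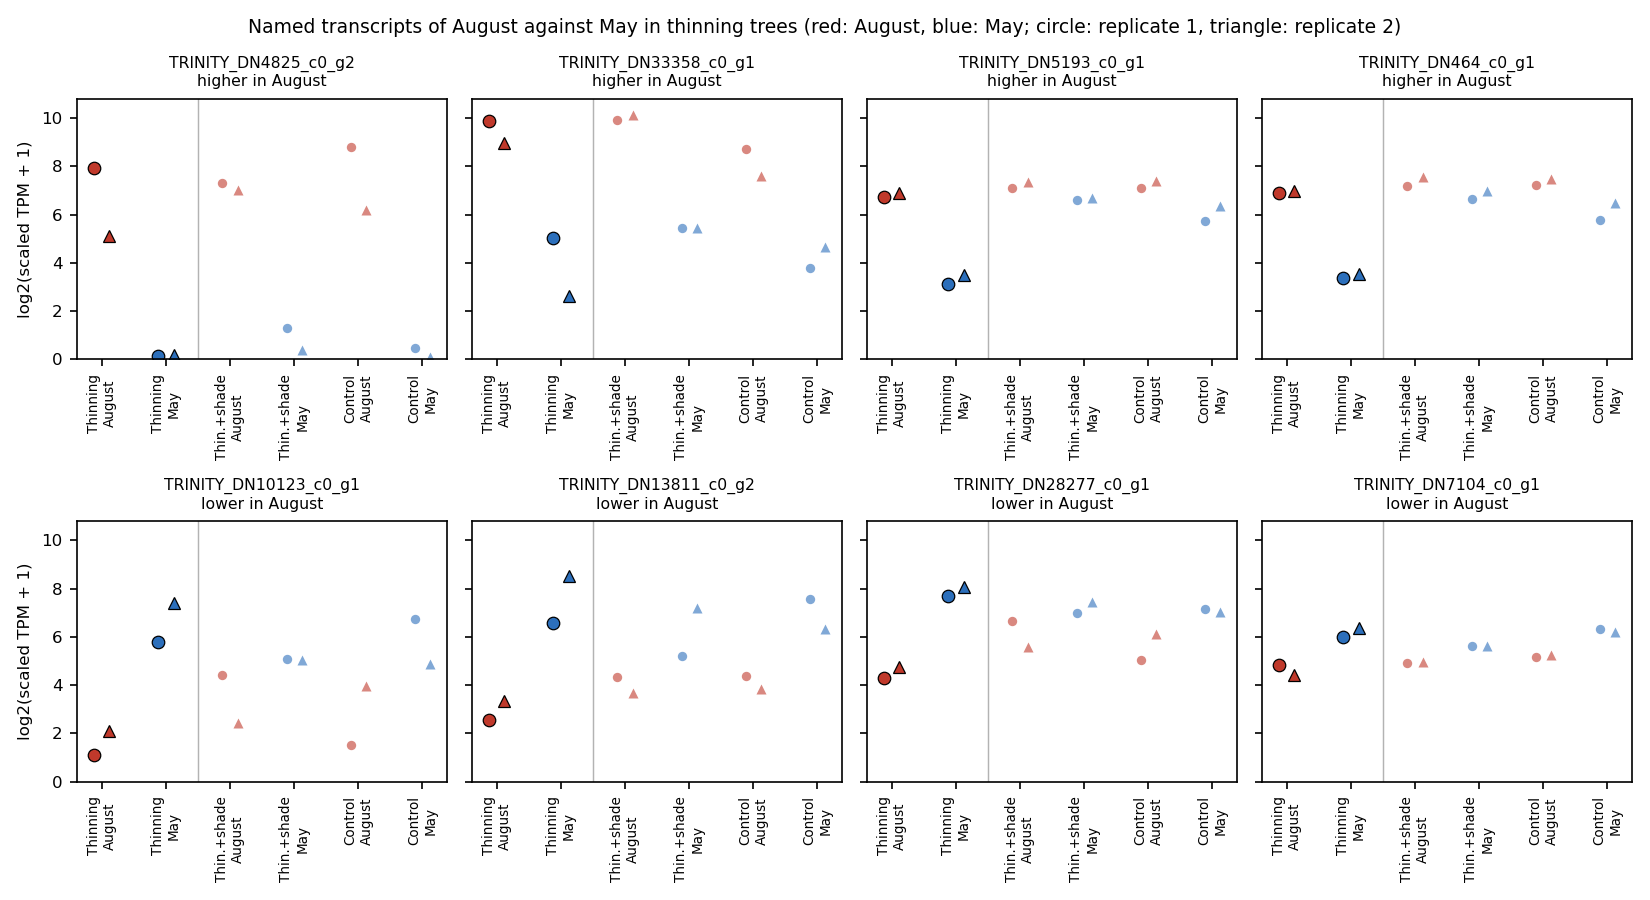
Level of the 8 named transcripts, as log2(scaled TPM + 1), in each of the 12 libraries (points; August in red, May in blue, replicate 1 a circle and replicate 2 a triangle), with the thinning libraries left of the grey line. In each panel both thinning August libraries lie on 1 side of both thinning May libraries, as the naming rule requires.

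How a transcript passed the limit bore on its chance to be called. Of the 9031 transcripts at 10 or more in all 4 thinning libraries, 192 were higher and 78 lower in August (2.99%). Of the 1098 at 10 or more in 1 library of each month only, 0 were called. Of the 2922 at 10 or more in both August libraries but not in both May libraries, 233 were higher and 0 lower (7.97%). Of the 1336 with the reverse pattern, 0 were higher and 143 lower (10.7%). The last 2 classes, which the limit itself draws towards 1 direction, hold 376 of the 646 calls. They include most transcripts named for August against May. TRINITY_DN4825_c0_g2, TRINITY_DN33358_c0_g1, TRINITY_DN5193_c0_g1 and TRINITY_DN464_c0_g1 passed through August, and TRINITY_DN10123_c0_g1 and TRINITY_DN13811_c0_g2 through May. TRINITY_DN28277_c0_g1 and TRINITY_DN7104_c0_g1 were at 10 or more in all 4 libraries. The calls against each May replicate alone were not split by how the transcripts passed the limit. By mean level over the 4 libraries, 4.49% of the 6588 transcripts under 20 were called, 4.41% of the 4878 from 20 to under 50, 5.04% of the 2422 from 50 to under 200, 2.49% of the 441 from 200 to under 1000, and 2 of the 58 at 1000 or more.

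Few transcripts were present in 1 month and near absent in the other. In 7 of the 14387 tested transcripts both August libraries were at 10 or more and both May libraries under 1, and 4 of these were called higher. In 9 the reverse was seen, and 2 of these were called lower. Such transcripts pass the limit through 1 month only, which fixes the direction of any call. Over all tested transcripts 2.95% were called higher and 1.54% lower. Against the May libraries one at a time the numbers were unequal: 33 transcripts at 10 or more in both August libraries were under 1 in thinning May replicate 1, and 176 were under 1 in thinning May replicate 2. In 11 and 54 of these the May library was listed at 0.

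The 646 calls, 4.49% of the tested transcripts, fell in 484 of the 9425 components tested. Of these components 316 had a higher call, 168 a lower call and 0 both. In 202 of the calls the transcript was the only tested one of its component. How often transcripts of 1 component move the same way over all tested was not counted. In 156 components there were at least 2 calls, which together made 318 of the 646, and 1 component held 4. Transcripts of 1 component may be copies or pieces of the same gene, with reads shared between them, so they are not separate observations. With values summed over components 373 of 11886 components were called, 241 higher and 132 lower.

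The called transcripts made up a small part of each library. The 425 higher transcripts held 3.25% and 3.05% of the summed value in thinning August, against 0.741% and 0.690% in thinning May. The 221 lower ones held 0.644% and 0.745% in thinning August, against 1.43% and 1.85% in thinning May. The 3 transcripts named as most abundant were not called against the May mean, though each was called against 1 May replicate alone. TRINITY_DN7298_c0_g1, which has the highest mean in both months, had 9565 and 10277 scaled TPM in thinning August, against 24378 and 12501 in thinning May (log2 fold change -0.82, SE 0.29; limma adjusted p = 0.127), and was lower in August than in replicate 1 alone (-1.30; limma adjusted p = 0.0298). TRINITY_DN3031_c1_g1 had 2009 and 2320 in thinning August, against 29048 and 1390 in thinning May, so that the August libraries lay between the 2 May libraries; it was lower than in replicate 1 alone (log2 fold change -3.75; limma adjusted p = 0.0197). TRINITY_DN2293_c0_g2 had 8888 and 1626 in thinning August, against 2528 and 140 in thinning May, with overlapping months; it was higher than in replicate 2 alone (log2 fold change 4.75; limma adjusted p = 0.0109).

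Set against thinning May replicate 1 alone, August differed in 251 transcripts (1.74%), 167 higher (1.16%) and 84 lower (0.584%; limma with thinning May replicate 2 left out). The lone May library is assumed to vary like the other groups. The thinning May replicates varied more, with a root mean square SD of 0.961 log2 units against 0.456 to 0.561 in the other groups. That difference does not enter the shared spread here, so SE and adjusted p-values may understate it. The higher ones had a median log2 fold change of 2.18 and the lower ones of -1.95, and 96 (0.667%) and 39 (0.271%) differed by at least 4-fold. TRINITY_DN13524_c0_g2 had 62.5 and 126 scaled TPM in thinning August, against 0.271 in thinning May replicate 1 (log2 fold change 6.14, SE 1.12; limma adjusted p = 0.0466) and 85.2 in replicate 2. TRINITY_DN12339_c0_g1 had 108 and 74.9 in August, against 1.43 in replicate 1 (log2 fold change 5.22, SE 0.93; limma adjusted p = 0.045) and 14.7 in replicate 2. For the first, thinning May replicate 2 lay within the range of the August libraries, and for the second it lay below both. TRINITY_DN4525_c0_g1 had 5.67 and 12.7 in August, against 255 in replicate 1 (log2 fold change -4.74, SE 0.87; limma adjusted p = 0.0466) and 68.5 in replicate 2. TRINITY_DN828_c0_g3 had 2.95 and 4.41 in August, against 104 in replicate 1 (log2 fold change -4.50, SE 0.43; limma adjusted p = 0.0196) and 10.6 in replicate 2. Both were lower in August than in either May library. TRINITY_DN828_c0_g3 was under 10 in both August libraries and passed the limit through May alone, which fixes its direction. Of the 251 calls, 0 were left without thinning August replicate 1 and 0 without replicate 2, 1487 were made after rescaling to the same total, with 93.1% higher against 66.5% as deposited, and 0 in the fit of the 3 libraries alone, so these 4 named calls were lost there and without either August replicate. Adding 8 in place of 1 before the log gave limma adjusted p-values of 0.0561 for TRINITY_DN13524_c0_g2 and 0.0613 for TRINITY_DN12339_c0_g1, which did not pass.

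Set against thinning May replicate 2 alone, August differed in 4473 transcripts (31.1%), 2683 higher (18.6%) and 1790 lower (12.4%; limma with thinning May replicate 1 left out). By at least 4-fold, 860 were higher (5.98%) and 384 lower (2.67%). As in the comparison with replicate 1 alone, the lone May library is assumed to vary like the other groups. The difference between the May replicates enters the shared spread in neither comparison, so SE and adjusted p-values may understate it. The median SE was 0.321 log2 units in both. TRINITY_DN2218_c0_g1 had 1633 and 2279 scaled TPM in thinning August, against 4.79 in thinning May replicate 2 (log2 fold change 8.38, SE 0.71; limma adjusted p = 0.00223) and 1896 in replicate 1. TRINITY_DN1748_c0_g1 had 2451 and 1137 in August, against 4.03 in replicate 2 (log2 fold change 8.37, SE 0.67; limma adjusted p = 0.00223) and 974 in replicate 1. In both, thinning May replicate 2 stood alone: the other 11 libraries were at 968 or more for TRINITY_DN2218_c0_g1 and at 547 or more for TRINITY_DN1748_c0_g1. TRINITY_DN7191_c0_g2 had 2.16 and 2.07 in August, against 1943 in replicate 2 (log2 fold change -9.28, SE 2.45; limma adjusted p = 0.0276) and 10.5 in replicate 1. TRINITY_DN1692_c0_g2 had 0.224 and 0.274 in August, against 646 in replicate 2 (log2 fold change -9.02, SE 2.58; limma adjusted p = 0.0348) and 17.4 in replicate 1. These 2 were next highest in control May replicate 1, at 1147 and 258, and then in shading May replicate 2, at 242 and 105. Both were under 10 in the August libraries and passed the limit through May alone, which fixes their direction. The calls of TRINITY_DN7191_c0_g2 and TRINITY_DN1692_c0_g2 were lost without either August replicate (limma adjusted p from 0.0817 to 0.0966) and with no filter (0.223 and 0.262). The count was 2225 without thinning August replicate 1 and 2164 without replicate 2; 60.0% of the calls were higher as deposited, 72.2% after rescaling and 49.2% after quantile normalization. Both single-replicate comparisons share the August libraries.

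**Figure D4:**
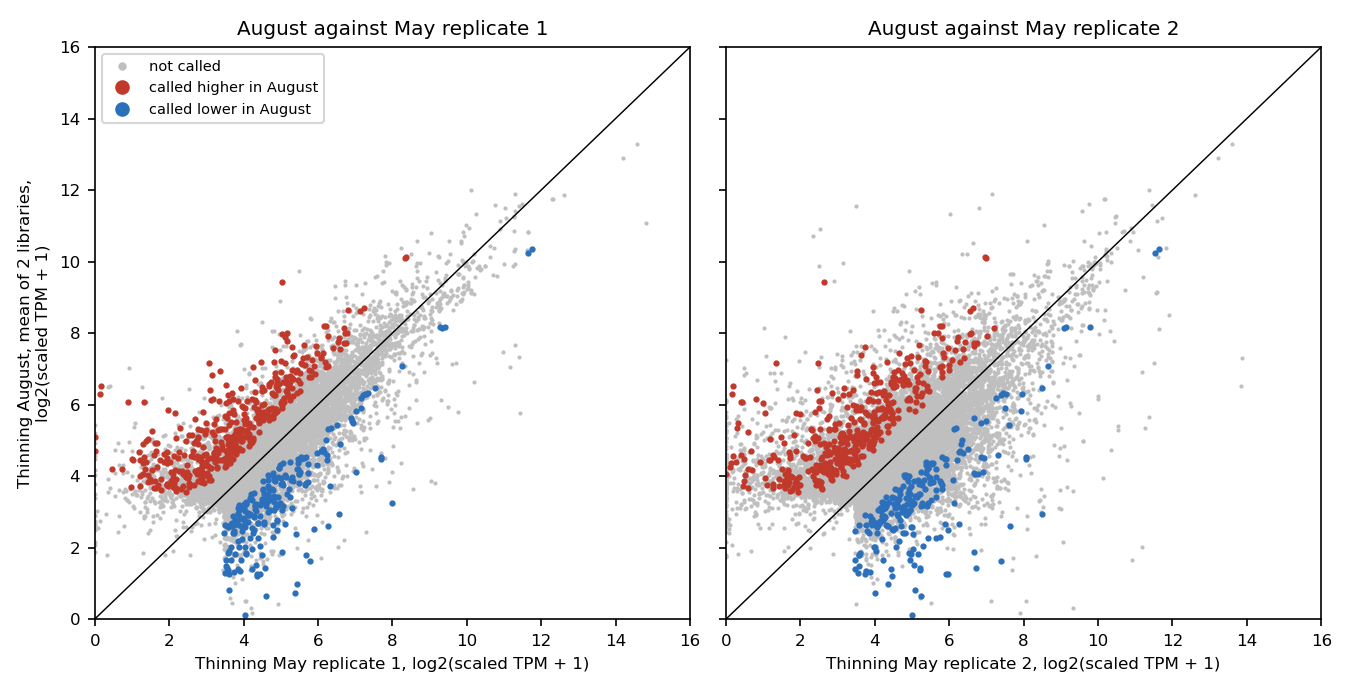
Mean of the 2 thinning August libraries (vertical) against thinning May replicate 1 (left) and replicate 2 (right), both as log2(scaled TPM + 1), for the 14387 tested transcripts (points), with the line of equality. The 425 transcripts called higher in August (red) and the 221 called lower (blue) lie on the same side of the line in both panels, and the grey cloud is wider against replicate 2.

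Taking the 4 libraries together, the August mean was less than 2-fold from both May libraries in 8156 transcripts (56.7%). It was at least 2-fold above both May libraries in 788 (5.48%) and at least 2-fold below both in 458 (3.18%). In 3644 transcripts (25.3%) August was at least 2-fold from thinning May replicate 2 but less than 2-fold from replicate 1, and in 913 (6.35%) the reverse held. August lay between the May libraries, at least 2-fold from each, in 242 transcripts with replicate 1 the higher and in 186 with replicate 2 the higher. At 4-fold or more, 136 transcripts were above both May libraries and 83 below both.

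The transcripts on which the May replicates parted most show both directions. Replicate 1 was at least 4-fold above replicate 2 in 974 tested transcripts, with a median of 27.2 and 23.3 scaled TPM in thinning August against 43.3 in thinning May replicate 1 and 3.89 in replicate 2. Replicate 2 was at least 4-fold above replicate 1 in 628, with a median of 15.9 in each thinning August library against 8.78 in thinning May replicate 1 and 74.9 in replicate 2. In the other treatments, the 628 had a median of 44.1 in control May replicate 1 and between 10.5 and 24.4 in the other 7 libraries. They held 13.7% of the summed value of thinning May replicate 2, against 3.17% and 2.96% in thinning August and 1.07% in thinning May replicate 1. TRINITY_DN5592_c0_g1 had 149 and 54.5 in thinning August, against 102 and 14762 in thinning May replicates 1 and 2. TRINITY_DN5203_c0_g1 and TRINITY_DN3680_c0_g3 had 867 and 638 in thinning May replicate 1 and were listed at 0 in replicate 2, while the other 10 libraries were at 26.2 or more. These are descriptions of single libraries, with no test.

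The month difference of thinning trees was set against those of the other treatments in the same transcripts. The test of the difference itself gave 0 calls against shaded trees (limma; smallest adjusted p 0.199; 1542 transcripts, 10.7%, at an unadjusted p under 0.05) and 0 against control trees (smallest adjusted p 0.0719; 1260 transcripts, 8.76%). Before adjustment, the 95% confidence interval of the difference had a median half-width of 1.05 log2 units. Without thinning May replicate 1 there were 1727 calls against shaded trees and 270 against control trees, and without control August replicate 2 there were 3 against control trees. With all 12 libraries in the fit, other settings gave 4 calls against shaded trees (a filter of 50), and 13 (quantile normalization) and 5 (no filter) against control trees.

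In the 425 transcripts higher in August in thinning trees, the median month difference was 1.66 in thinning, 0.86 in shaded and 0.63 in control trees, and the sign was positive in 381 in shaded and 384 in control trees. In the 221 lower ones it was -1.52 in thinning, -0.95 in shaded and -0.88 in control trees, and the sign was positive in 14 in shaded and 11 in control trees. Over all tested transcripts the medians were 0.09, -0.00 and -0.10, with 49.9% positive in shaded and 41.9% in control trees. Since these sets were picked on the thinning trees, a larger difference there is favoured. Of the named transcripts, TRINITY_DN5193_c0_g1 had a month difference 2.91 log2 units larger in thinning than in shaded trees (SE 0.37; limma adjusted p = 0.199) and 2.31 larger than in control trees (SE 0.37; adjusted p = 0.118), which did not pass. TRINITY_DN123848_c0_g1, chosen after its values were seen, was the 1 transcript called in opposite directions in thinning and another treatment; 2.59% of the transcripts were called in shaded and 0.215% in control trees. It had 6.90 and 6.33 scaled TPM in thinning August, against 17.2 and 23.0 in thinning May (log2 fold change -1.46, SE 0.32; limma adjusted p = 0.0449). It passed the limit through May alone, which fixes the direction of its call in thinning trees. In control trees it had 102 and 49.8 in August, against 11.6 and 9.52 in May (log2 fold change 2.65, SE 0.32; adjusted p = 0.0261 by limma). The difference between the treatments was -4.11 log2 units (SE 0.45; limma adjusted p = 0.0719) and did not pass, and its call in thinning trees was lost without either August replicate.

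**Figure D5:**
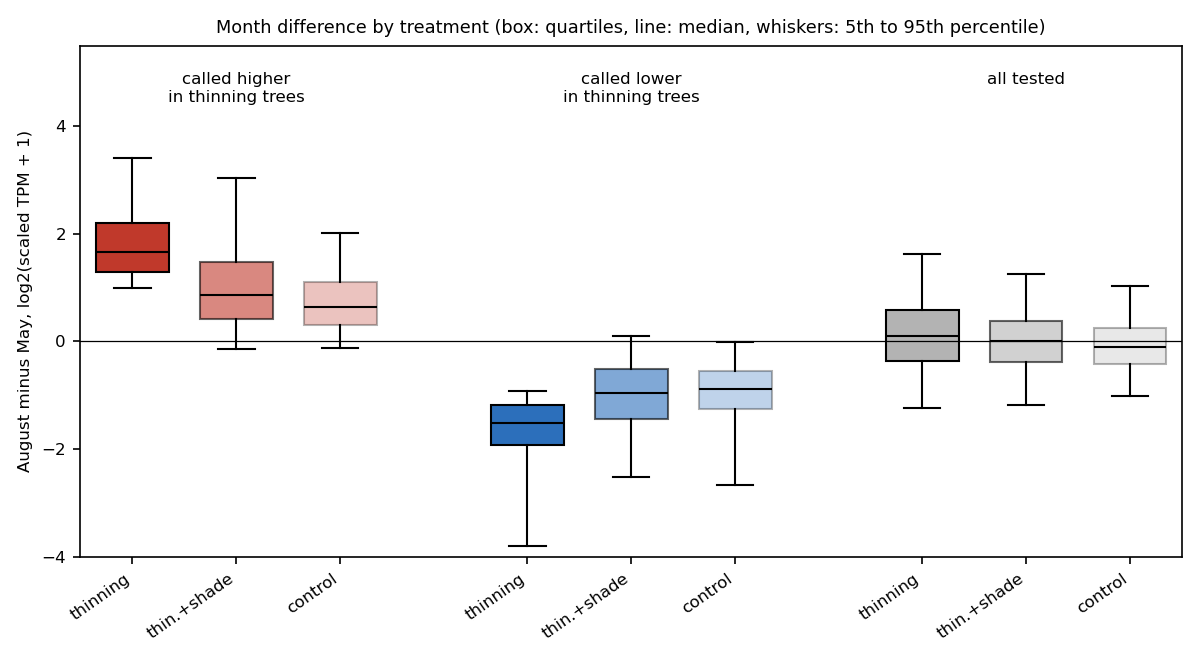
August minus May on log2(scaled TPM + 1) in thinning, shaded and control trees, for the 425 transcripts called higher in thinning trees, the 221 called lower and all 14387 tested (box, quartiles; line, median; whiskers, 5th to 95th percentile). The shaded and control medians lie on the same side of 0 as the thinning median in both called sets, and nearer to 0.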

How the data were processed

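Per the labels, needle RNA with an integrity number above 7 was poly(A)-selected and sequenced from TruSeq libraries in pairs of 150 bp; that text names maritime pine roots, whereas tissue and organism labels say fir needles. Trimmomatic, RSEM and DESeq2 are named, with no version, per the submitters' processing notes; for the assembly, the method is not given in the sources used here. Values deposited by the authors are a signal with column sums from 856638 to 1179097. Rescaled to a common total, at least 99.3% of those above 0 are multiples of 0.01 (to 0.1 step), so they are TPM times 1 factor per library. Groups came from sample titles and columns from sample descriptions.

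Limma 3.58.1 (R 4.3.3) was run on log2(scaled TPM + 1) for transcripts at 10 or more in at least 2 of the 4 thinning libraries. All 12 libraries entered 1 fit of 6 group means (11 libraries against a single May replicate), with trended empirical Bayes moderation, two-sided tests and Benjamini-Hochberg adjustment over all tested transcripts in each of 7 comparisons. The code was tested on simulated data drawn with the same spread in every group. That test does not cover the larger spread of the thinning May replicates. Named transcripts, 1 per component, are up to 2 called per direction with the largest change, and for August against May with the smallest adjusted p, at a mean of 50 or more in the higher month and without overlap; up to 2 per direction with the largest gap between May replicates; and the 2 most abundant per month. Members, lists and rules were chosen with earlier results of these data known.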

Additional observations from a re-analysis of the deposited data

Results flagged for a closer look

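Thinning May replicate 1 listed 63046 transcripts that were at 0 in the other 11 libraries, which lie outside the comparisons and exceed the level in every control library. The other 11 libraries listed between 1153 and 7861 such transcripts each. In thinning May replicate 1 they had a median of 1.72 scaled TPM, reached 114 at most, and held 10.9% of its summed value, against 0.197% to 1.71% elsewhere. Of them, 105 were at 10 or more. Their part in the differences between the months was not tested.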

How the results depend on the processing

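August against May in thinning trees gave 646 calls as reported. It gave 4 with no filter, 255 with a filter of 50, 307 with a filter of 10 in at least 2 of the 12 libraries, 2096 after rescaling to the same total, 373 with sums over components, 2 in the fit of thinned trees only, and 0 with library weights or in the fit of the thinning libraries alone. Leaving out 1 library gave from 0 to 4473; all 646 remained without thinning May replicate 1, and 155 of them without replicate 2. Against May replicate 1 alone (251 calls) there were 106465 of 263574 with no filter, 101881 of them lower in August, 157 with a filter of 50, 1487 after rescaling, 462 after quantile normalization and 0 in the fit of the libraries compared; leaving out an August library gave 0. Against May replicate 2 alone (4473) there were 1206 with a filter of 50, 4832 with no filter (1497 higher and 3335 lower, 1018 of them among the 4473), and from 2164 to 2225 without an August library. The month difference of thinning minus control trees (0 calls) gave 5 with no filter, 13 after quantile normalization, and from 0 to 270 without 1 library; that of thinning minus shaded trees (0) gave 4 with a filter of 50 and from 0 to 1727. Both August libraries were above both May libraries in 1057 transcripts with a filter of 50 and in 6182 after rescaling (4091 as reported), and below both in 546 and 1328 (2982). With the replicate number as a block, August against May gave 0 calls (limma; 3214 transcripts at an unadjusted p under 0.05), and the differences from the other treatments gave 0. The numbers are not said to pair samples; replicate deviations of the 2 months correlated at r = 0.144 across transcripts. For the 16 transcripts named by rule from calls, 170 of 268 alternative values kept their call, 98 lost it and 0 changed sign. Those named only for the gap between May replicates, for abundance or for opposite directions are not among them. Causes were not tested. Alternatives without a control or shading library in the thinning comparison, the fit of thinned trees only and the sums over components were chosen after seeing the data.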

Other observations

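The limit of 10 in at least 2 thinning libraries leaves out transcripts that were high in 1 May library alone. Over the whole table, 1478 transcripts were under 1 in both thinning August libraries and at 10 or more in thinning May replicate 1, of which 9 were tested. For thinning May replicate 2 there were 890, of which 9 were tested. The remaining transcripts did not enter the tests as reported.

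The 10 most abundant transcripts held 6.05% and 5.42% of the summed value in thinning August, against 8.61% and 7.53% in thinning May. In shading May they held 14.8% and 15.4%, and in control May 11.1% and 11.7%. TRINITY_DN3031_c1_g1 was at 29048 scaled TPM in thinning May replicate 1, and between 19968 and 46300 in the shading and control May libraries, but at 1390 in thinning May replicate 2, the lowest of the 12 libraries.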
